A study of Mus musculus with 10 samples.

Results

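Microglia of mice lacking Trem2 were compared between withdrawal of cuprizone and feeding with it. Of the 10 libraries of the series, 4 belong to this comparison, chosen by their titles: 2 recovery libraries (Trem2-Cu4+2 and Trem2-Cu12+2) and 2 cuprizone libraries (Trem2-Cu4 and Trem2-Cu12). The animals were male Trem2-/- mice of 8 to 12 weeks that ate food with 0.2% cuprizone for 4 or 12 weeks. The recovery mice then ate normal food for 2 weeks. Each recovery library was paired with the cuprizone library of the same titled feeding time, giving a 4-week pair and a 12-week pair. The 4 libraries of male C57BL/6 (WT) mice under the same diets entered the same statistical model, and 1 untreated control library per genotype is given as a reference level without a test. All libraries were made from microglia sorted by flow cytometry, with 2 ng of RNA amplified into biotinylated cRNA for the array. The labels name neither separate animals nor pools, and the 2 libraries of a group differ in feeding time. P-values thus measure only how the difference by feeding time varied among the groups, which may be technical, and not a spread between repeats.

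Trem2 is a surface receptor of microglia that binds lipids and lipoproteins and signals through the adaptor Tyrobp. Cuprizone is a copper chelator whose feeding kills oligodendrocytes and strips myelin from axons, and remyelination starts once it is withdrawn. Microglia that meet myelin debris lower genes of their resting, homeostatic state and raise a set known as the disease-associated microglia programme, which includes genes for lipid transport, phagocytosis and lysosomes and depends in part on Trem2.

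The array medians of the 10 libraries lay between 37.6 and 39.3 on the linear intensity scale, and all levels below are log2 of the deposited intensity. The libraries of a pair correlated at 0.991 (4 weeks) and 0.988 (12 weeks) over all probes, as a description. Titled feeding time coincides with the order of the sample numbers. The labels used here name no processing batch, and any that followed this order could not be told apart from feeding time. Trem2-Cu12 has a conflicting time label of 4 weeks and was counted by its title. The Trem2 probe read between 10.66 and 10.81 in WT and between 7.26 and 7.85 in Trem2-/- mice. The sources used here do not say whether it lies inside the deleted part. Of 8 microglia markers 7 were measured, and they were bright in all 10 libraries, for example P2ry12 at 11.18 to 11.37 in the 4 libraries compared here.

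No gene passed the test in Trem2-/- microglia. With limma's moderated test and Benjamini-Hochberg adjustment over 10792 genes, 0 genes were called between recovery and cuprizone (0%), and the smallest adjusted p was 1 after rounding. At an unadjusted p under 0.05 there were 312 genes (2.89%). In both pairs alike, 2389 genes were higher in recovery (22.1%) and 2461 were lower (22.8%). The remaining 55.1% moved one way in the 4-week pair and the other way in the 12-week pair. Across genes, which are not independent replicates, the changes of the pairs correlated at -0.12. In the WT libraries the same correlation was 0.18. A change of at least 1 on the log2 scale was seen for 19 genes in the 4-week pair and 77 in the 12-week pair, against 113 and 167 in WT. Because no gene passed, the groups below are described by their values, their counts in both pairs and the shares of all genes just given.

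**Figure D1:**
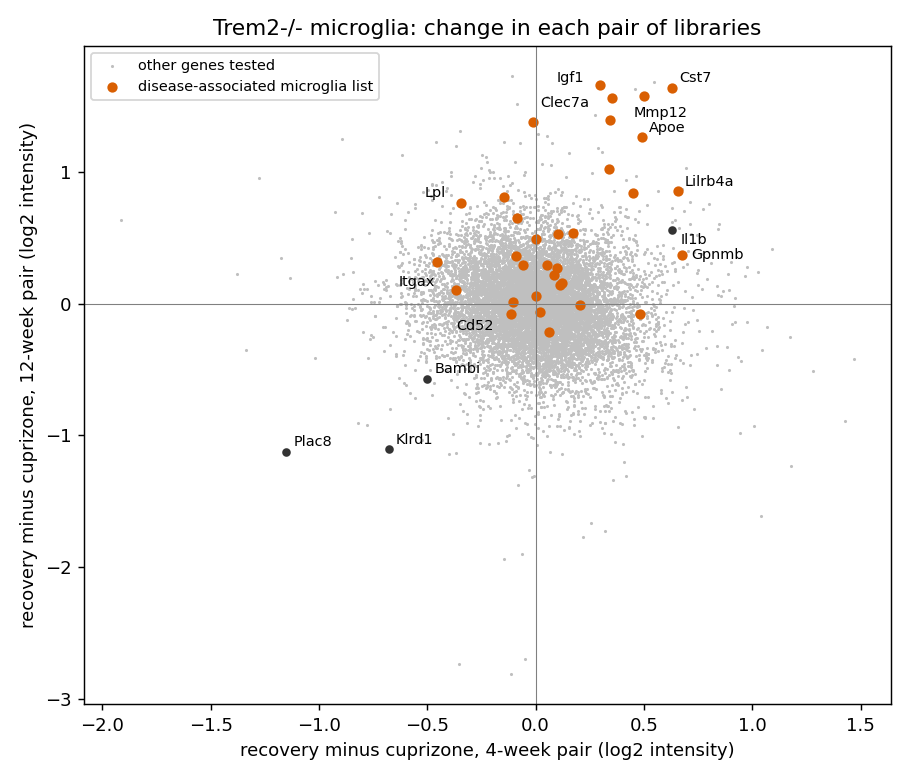
Each point is a gene, with recovery minus cuprizone of the 4-week pair on the x axis and of the 12-week pair on the y axis, both in log2 intensity. Grey points are all other genes tested and orange points the 33 tested genes of the disease-associated microglia list, of which 19 lie in the upper right quadrant, where 22.1% of all genes lie.

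The disease-associated microglia genes were mostly higher in recovery than on cuprizone when Trem2 was absent. Of 34 genes on the list, 33 were tested (the array has no probe that names Spp1 alone). Among these, 19 were higher in both pairs and 1, Cd52, was lower in both. The 19 include Gpnmb, which lay below 5.27, the median of all log2 values, in every Trem2-/- library. It entered the test through WT libraries alone. The median change was 0.21, with 0.10 in the 4-week pair and 0.37 in the 12-week pair, beside -0.006 over all genes tested. An unadjusted p under 0.05 was reached by 10 of the 33, beside 2.89% of all genes, and 0 passed adjustment. The size rested on the 12-week libraries: the median was 0.07 without Trem2-Cu12 and 0.15 without Trem2-Cu12+2, and 0.35 and 0.32 without Trem2-Cu4 and Trem2-Cu4+2.

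Cst7, the cystatin F inhibitor of lysosomal cysteine proteases, had the largest mean change of the list. Its levels were 7.76 and 6.66 on cuprizone at 4 and 12 weeks and 8.38 and 8.30 in recovery. Both recovery libraries lay above both cuprizone libraries, and the untreated Trem2-/- control measured 6.37. The mean change was 1.14 ± 0.25 (limma's standard error, 2 against 2 libraries), with an unadjusted limma p of 0.00106 that adjustment over all genes took to 1. With 1 library left out the mean change was 0.75 without Trem2-Cu12+2, 0.84 without Trem2-Cu12, 1.43 without Trem2-Cu4 and 1.52 without Trem2-Cu4+2. In WT, Cst7 went the other way, from 10.98 and 9.92 on cuprizone to 8.71 and 8.31 in recovery. The recovery libraries of the genotypes thus stood close together at 12 weeks, while those on cuprizone were far apart.

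Apoe, the main lipid carrier made by glia, measured 11.79 and 11.14 on cuprizone and 12.28 and 12.40 in recovery in Trem2-/- microglia. Its recovery libraries lay above those on cuprizone and above the control at 10.36, with a mean change of 0.88 ± 0.21. Clec7a, the receptor Dectin-1, measured 6.23 and 5.89 on cuprizone and 6.58 and 7.46 in recovery. The groups did not overlap, and the larger step was that of the 12-week pair (1.57 against 0.35). Mmp12, macrophage elastase, showed the same shape, with 4.84 and 5.02 on cuprizone and 5.34 and 6.61 in recovery.

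Igf1, a growth factor that acts on oligodendrocytes, measured 6.37 and 5.07 on cuprizone and 6.66 and 6.73 in recovery. The recovery libraries were the higher ones, and the steps were 0.30 and 1.66. In the wider list of trophic factors 3 of 6 tested genes were higher in both pairs and 0 lower, Tgfb1 at 0.17 ± 0.16 and Vegfa at 0.14 ± 0.17 being the others. Lilrb4a, an inhibitory receptor of the immunoglobulin family, measured 8.42 and 8.77 on cuprizone and 9.08 and 9.62 in recovery. Recovery again lay above cuprizone, with steps of 0.66 and 0.86 and a mean change of 0.76 ± 0.18. Csf1, the growth factor that keeps microglia alive, measured 8.59 and 7.81 on cuprizone and 9.05 and 8.65 in recovery. Axl, a receptor that recognises dying cells through bridging proteins, measured 5.59 and 5.32 on cuprizone and 5.93 and 6.34 in recovery. In both genes the recovery libraries lay above those on cuprizone, by a mean of 0.65 ± 0.19 for Csf1 and 0.68 ± 0.22 for Axl.

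Other defining genes of the programme were dim or mixed in Trem2-/- microglia. Gpnmb, a glycoprotein of lysosomes and phagosomes, measured 4.57 and 4.52 on cuprizone and 5.24 and 4.90 in recovery, all below the table's median of 5.27. Its mean change was 0.52 ± 0.18. Itgax, the integrin CD11c, measured 5.18 and 4.93 on cuprizone and 4.81 and 5.04 in recovery, with overlapping groups and a mean change of -0.13 ± 0.24. Lpl, lipoprotein lipase, measured 5.57 and 5.53 on cuprizone and 5.23 and 6.30 in recovery. It was lower in the 4-week pair and higher in the 12-week pair. Tyrobp, the signalling partner of Trem2, was between 12.42 and 12.64 in all 4 libraries. In the wider TREM2 signalling list 2 of 15 tested genes were higher in both pairs and 2 lower, with Card9, an adaptor downstream of such receptors, at a mean change of 0.42 ± 0.16, Lat2 at 0.18 ± 0.15 and Grb2 at -0.18 ± 0.18.

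**Figure D2:**
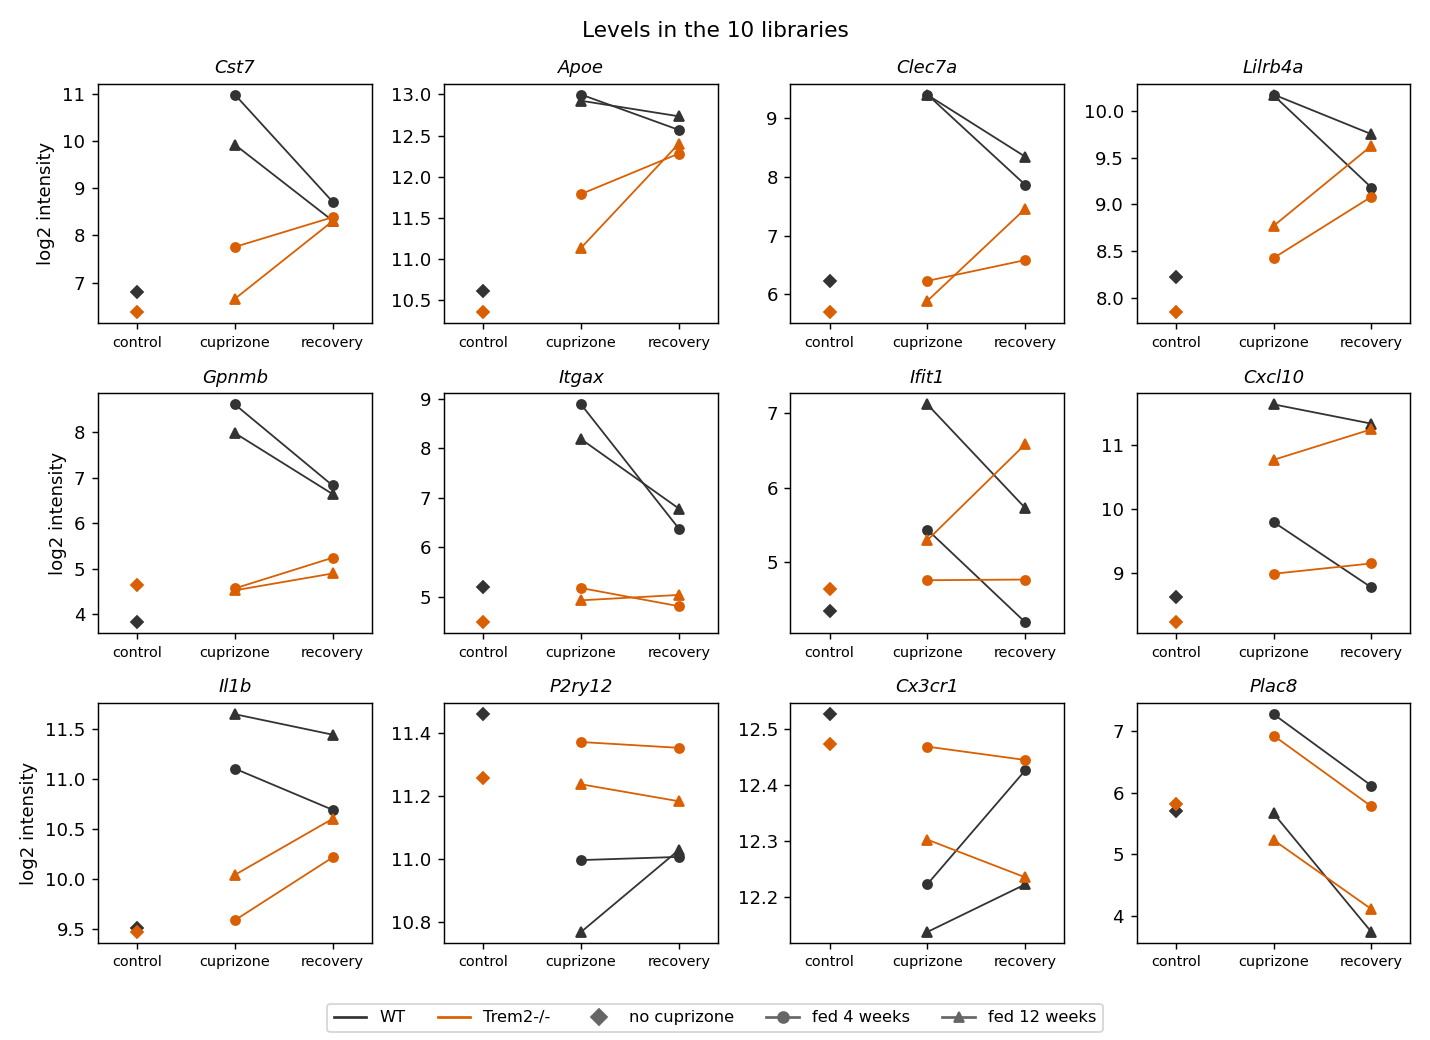
Log2 intensity of 12 genes in the 10 libraries, with WT in black and Trem2-/- in orange. Diamonds are untreated controls, and lines join the cuprizone library to the recovery library of the same titled feeding time (circles 4 weeks, triangles 12 weeks). For Cst7, Apoe, Clec7a and Lilrb4a the orange lines go up and the black lines go down. For Plac8 all 4 lines go down.

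The interferon response genes, which answer type I interferons, were higher in recovery mainly in the 12-week pair. Of 33 genes listed, 26 were tested, with 11 higher in both pairs and 1, Irf7, lower in both. The median change was 0.22, made up of 0.04 in the 4-week pair and 0.46 in the 12-week pair, and 2 of the 26 had an unadjusted p under 0.05. It was 0.08 without Trem2-Cu12, 0.09 without Trem2-Cu12+2, 0.39 without Trem2-Cu4 and 0.27 without Trem2-Cu4+2. Ifit1, which binds foreign RNA, measured 4.76 and 5.30 on cuprizone and 4.77 and 6.58 in recovery. Nearly all of its mean change of 0.65 ± 0.27 came from the 12-week pair, and the groups overlapped. Oasl2, of the oligoadenylate synthetase family, measured 5.51 and 5.38 on cuprizone and 5.77 and 6.38 in recovery. Oas1a, an oligoadenylate synthetase, measured 5.68 and 5.67 on cuprizone and 5.99 and 6.42 in recovery. Both were higher in both recovery libraries than in either cuprizone library. Cxcl10, a chemokine that draws in T cells, measured 8.98 and 10.76 on cuprizone and 9.15 and 11.24 in recovery. Its level followed feeding time more than diet, and the steps within the pairs were 0.16 and 0.48. With Trem2-Cu12 counted as 4 weeks the signs turned, with changes of -0.19 for Ifit1 and -0.76 for Cxcl10.

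Ifit1, Oas1a and Ifi207, interferon genes that were higher in both pairs, are shown with their promoters, because they share the short motif that interferon-activated factors are known to read. The motif searched was GAAA, any 2 bases, GAAA, on both strands. It stood in the 250 bases before the start in 10 of the 20 interferon list genes with a RefSeq promoter (GRCm38.p6), including 6 of 9 that were higher in both pairs. It was held by 2.98% of all 32851 promoters there, and by 3.18% of the tested genes with a promoter. Capitals mark the matches.
Ifit1 (chr19:34640639-34640888, plus strand): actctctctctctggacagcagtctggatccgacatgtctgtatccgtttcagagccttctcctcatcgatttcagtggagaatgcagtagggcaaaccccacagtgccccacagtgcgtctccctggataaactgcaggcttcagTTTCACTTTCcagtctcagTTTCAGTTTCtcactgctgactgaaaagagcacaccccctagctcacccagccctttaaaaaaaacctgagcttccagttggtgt
Oas1a (chr5:120907526-120907775, minus strand): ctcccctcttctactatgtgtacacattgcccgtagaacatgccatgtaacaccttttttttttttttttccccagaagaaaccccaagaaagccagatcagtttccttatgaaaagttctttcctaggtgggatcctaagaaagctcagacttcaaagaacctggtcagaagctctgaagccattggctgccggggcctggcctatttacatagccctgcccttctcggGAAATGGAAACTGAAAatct
Ifi207 (chr1:173741810-173742059, minus strand): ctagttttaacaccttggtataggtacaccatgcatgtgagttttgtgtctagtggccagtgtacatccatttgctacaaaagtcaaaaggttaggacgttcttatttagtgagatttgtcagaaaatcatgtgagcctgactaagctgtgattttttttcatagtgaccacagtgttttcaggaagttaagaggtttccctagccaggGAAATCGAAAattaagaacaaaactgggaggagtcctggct
In Ifit1 the matches are on the opposite strand and read as TTTC, any 2 bases, TTTC, and in Oas1a the 2 matches overlap. Ifi207, of the interferon-inducible family that senses DNA, measured 9.01 and 8.73 on cuprizone and 9.14 and 9.44 in recovery, against 6.93 in the control. Another search, for the motif TCACGTG read by lysosomal transcription factors, found it on either strand in 1 of 27 disease-associated microglia genes with a promoter, Ctsd, beside 3.13% of all promoters and 5.92% of the tested genes with a promoter. A match describes these letters and no binding.

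Genes of inflammatory cytokines and their regulators were more often higher than lower in recovery, and 0 passed adjustment. Of 18 tested, 11 were higher in both pairs and 1 was lower, and 5 had an unadjusted p under 0.05. The median change was 0.23, with 0.26 at 4 weeks and 0.23 at 12 weeks. With the library Trem2-Cu12 counted as 4 weeks, as its time label has it, the median was -0.01, and without Trem2-Cu4+2 it was 0.14. Il1b, the cytokine interleukin-1 beta, measured 9.59 and 10.04 on cuprizone and 10.22 and 10.60 in recovery. The groups did not overlap, and the steps were 0.63 and 0.56 around a mean of 0.59 ± 0.16. Tnfsf9, the ligand of the costimulatory receptor 4-1BB, measured 6.62 and 8.13 on cuprizone and 7.65 and 8.37 in recovery, with overlapping groups and a change of -0.18 under the time label. Tnf, the cytokine tumour necrosis factor, measured 11.13 and 11.98 on cuprizone and 11.40 and 12.30 in recovery, a mean change of 0.30 ± 0.17.

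Chemokine lists showed no common direction. Among CC chemokines 4 of 13 were higher in both pairs and 3 lower, with a median change of -0.07. Ccl2, which draws in monocytes, had changes of 0.11 and 0.36 in the pairs, and Ccl7, a close relative, measured 10.56 and 10.36 on cuprizone and 10.42 and 10.20 in recovery. Ccl8 was at 6.52 and 6.21 on cuprizone and 6.81 and 6.70 in recovery, far above its control level of 4.37. In the CXC list 1 of 8 was higher in both pairs and 1 lower. Immediate early genes, which react to handling and to stimulation within minutes, had 10 of 25 higher in both pairs and 4 lower, with a median change of 0.06. Fosb, a transcription factor of the AP-1 family, had a mean change of 0.23 ± 0.19, and Nr4a2, lower in both pairs, had -0.24 ± 0.23.

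**Figure D3:**
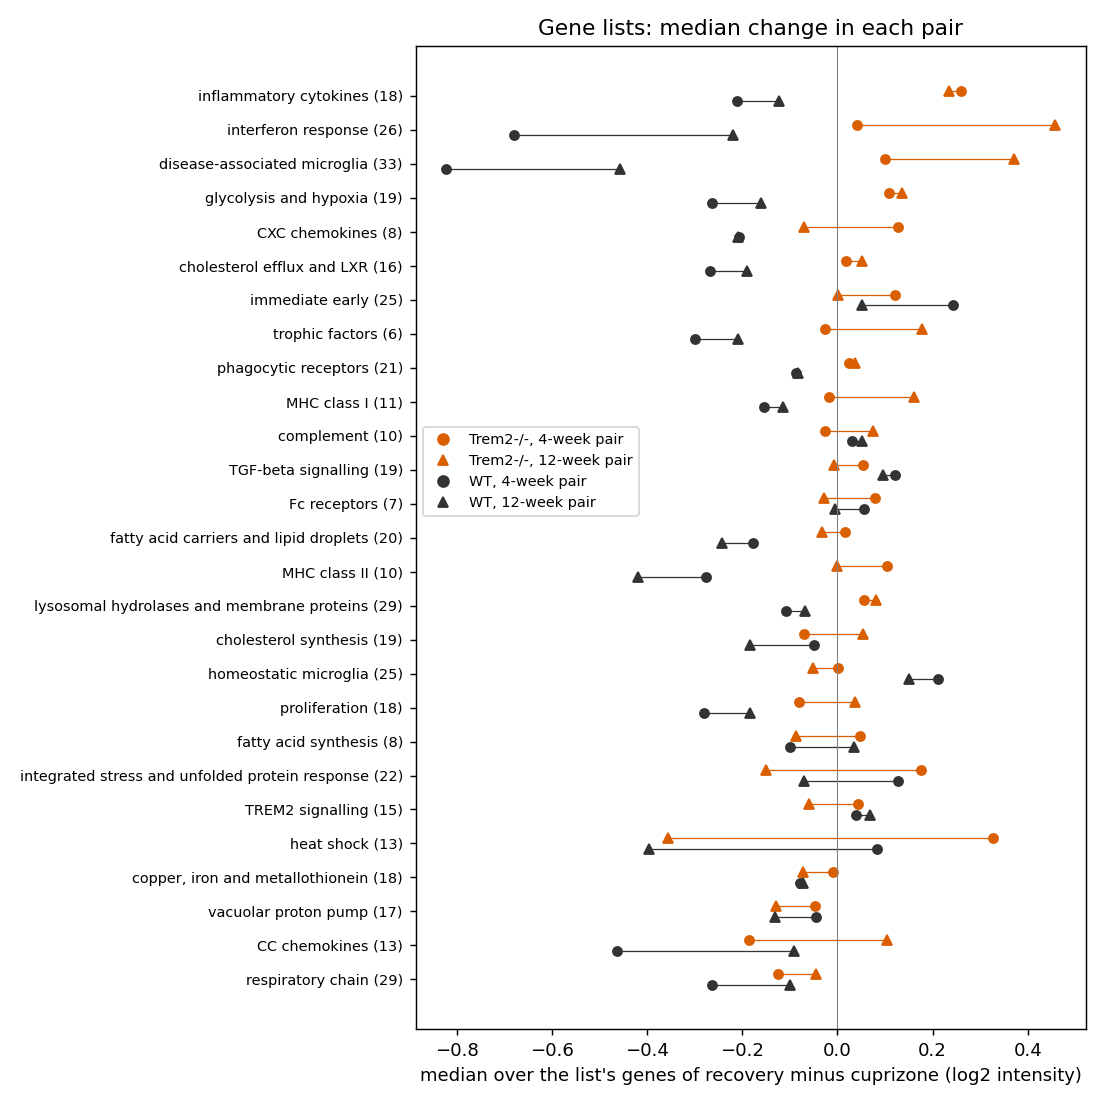
Median over the tested genes of each list (number in brackets) of recovery minus cuprizone, in log2 intensity. Circles are the 4-week pair and triangles the 12-week pair, orange Trem2-/- and black WT. In Trem2-/- the interferon, cytokine and disease-associated microglia lists have the highest medians over both pairs (0.22, 0.23 and 0.21), and the heat shock list has opposite signs in the pairs (0.33 and -0.36).

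Lipid genes moved in parts. Plin2, the coat protein of lipid droplets, measured 7.33 and 7.51 on cuprizone and 7.69 and 8.21 in recovery in Trem2-/- microglia, above both the cuprizone libraries and the control at 6.90. Its mean change was 0.53 ± 0.16. Dgat2, which makes triglycerides, had the opposite sign, with 5.16 and 5.47 on cuprizone, 4.90 and 4.83 in recovery and a mean change of -0.45 ± 0.19. Of these Dgat2 levels only that of Trem2-Cu12, 5.47, was above the table median of 5.27. The list of fatty acid carriers and lipid droplet genes that holds Plin2 and Dgat2 was balanced, with 7 of 20 higher in both pairs and 7 lower. Nceh1, which frees cholesterol from its esters, measured 6.17 and 5.25 on cuprizone and 6.54 and 6.11 in recovery. The groups overlapped, and within the pairs it was higher by 0.36 and 0.86. In the list of cholesterol efflux and LXR targets 6 of 16 were higher in both pairs and 4 lower, with Abca1, the cholesterol exporter, at 0.18 ± 0.16 and Scarb1, the HDL receptor, at -0.28 ± 0.15. Cholesterol synthesis genes had 5 of 19 higher and 5 lower, with a median change of 0.0066. Hmgcs1 was at 0.26 ± 0.18, Sqle at 0.32 ± 0.16, Tm7sf2 at 0.43 ± 0.21 and Hsd17b7 at -0.26 ± 0.19. In fatty acid synthesis 1 of 8 was higher and 3 were lower, Acaca at 0.37 ± 0.23 and Scd1 at -0.32 ± 0.25 being the largest. Scd1 was above the table median of 5.27 in the untreated controls alone, so its change is between values near background.

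Lysosomal hydrolases and membrane proteins had 12 of 29 genes higher in both pairs and 3 lower, beside 22.1% and 22.8% of all genes, but their median change was only 0.01. The 12 include Gpnmb, which entered the test through WT libraries alone. Tpp1, a lysosomal peptidase, measured 9.97 and 9.08 on cuprizone and 10.02 and 9.88 in recovery, so its change lay in the 12-week pair. Gaa, which degrades glycogen in lysosomes, had a mean change of 0.32 ± 0.18. The proton pump that acidifies lysosomes had 1 of 17 genes higher and 4 lower, with Atp6v1e1 at -0.36 ± 0.17. Among phagocytic receptors 8 of 21 were higher and 5 lower, from Clec7a at 0.96 ± 0.26 to the scavenger receptor Colec12 at -0.60 ± 0.19. Complement genes had 3 of 10 higher and 3 lower, with C4b at 0.41 ± 0.21, C1qa at 0.13 ± 0.15 and C1qc at -0.06 ± 0.15. Fc receptors had 0 of 7 in either direction in both pairs.

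Antigen presentation genes changed little on the median. In MHC class II 3 of 10 were higher in both pairs and 2 lower. Cd74, the invariant chain, measured 9.32 and 8.67 on cuprizone and 9.44 and 9.39 in recovery, whereas H2-Aa, a class II chain, had changes of -0.16 and 0.19 in the pairs. Both recovery libraries were above those on cuprizone for Cd74, and the groups overlapped for H2-Aa. In MHC class I 3 of 11 were higher and 2 lower, with the peptide transporter Tap1 at 6.33 and 5.77 on cuprizone and 6.40 and 6.61 in recovery.

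Homeostatic microglia genes showed no common direction in Trem2-/- microglia. Of 25 tested, 3 were higher in both pairs and 7 lower, with a median change of 0.0035 and 0 genes at an unadjusted p under 0.05. P2ry12, a purinergic receptor, measured 11.37 and 11.24 on cuprizone and 11.35 and 11.18 in recovery, and Cx3cr1, the fractalkine receptor, 12.47 and 12.30 against 12.45 and 12.23. For both, cuprizone and recovery libraries overlapped and differed by less than their standard errors of 0.15. Sall1, a transcription factor of microglial identity, measured 10.58 and 9.87 on cuprizone and 10.58 and 9.63 in recovery, and its spread followed feeding time. Tmem119 had a mean change of 0.06 ± 0.17 and Csf1r of 0.02 ± 0.15. In WT, 21 of the 25 were higher in both pairs, beside 26.4% of all genes, and 0 were lower, with a median change of 0.18. TGF-beta signalling genes, on which the homeostatic state depends, had 5 of 19 higher and 4 lower in Trem2-/- microglia, with Id2 at 0.24 ± 0.16 and Ski at 0.21 ± 0.16.

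Glycolysis and respiratory chain genes had opposite signs on the median. Glycolysis and hypoxia genes had 9 of 19 higher in both pairs and 1 lower, with a median change of 0.14 and 0 at an unadjusted p under 0.05. Hif1a, the oxygen-sensitive transcription factor, measured 8.68 and 8.97 on cuprizone and 8.80 and 9.36 in recovery, and Slc2a1, a glucose transporter, 7.97 and 8.91 against 8.29 and 9.04. Both genes were higher within each pair, while the groups overlapped. The respiratory chain had 3 of 29 higher in both pairs and 10 lower, with a median change of -0.11. Ndufb3, a subunit of complex I, measured 6.60 and 6.83 on cuprizone and 6.23 and 6.38 in recovery, with the recovery libraries below. WT had 20 of the same 29 lower in both pairs, beside 29.5% of all genes.

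Stress and metal genes are given for the diet's sake. Heat shock genes were higher in recovery in the 4-week pair (median 0.33) and lower in the 12-week pair (median -0.36), so only 1 of 13 was higher in both pairs and 0 were lower. The integrated stress and unfolded protein response had 6 of 22 higher and 3 lower, with Psat1 at 0.42 ± 0.18 and Herpud1 at -0.39 ± 0.18. Among copper, iron and metallothionein genes 2 of 18 were higher and 6 lower. Mt2, a metallothionein that binds copper and zinc, measured 8.63 and 9.67 on cuprizone and 8.63 and 8.81 in recovery, a difference present in the 12-week pair alone. Slc31a2, a copper transporter, measured 7.53 and 7.52 on cuprizone and 7.85 and 7.92 in recovery, with both recovery libraries above and the control at 7.52.

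Proliferation genes had 4 of 18 higher in both pairs and 4 lower. Pcna, the sliding clamp of DNA replication, belonged to the bright genes that were lower in recovery by at least 0.5 in both pairs, though it did not pass the test. It measured 10.85 and 11.45 on cuprizone and 10.24 and 10.84 in recovery. Recovery lay below cuprizone by 0.61 in each pair, and the untreated control, at 10.39, lay between the recovery libraries. Klrd1, the natural killer cell receptor CD94, measured 7.73 and 7.36 on cuprizone and 7.06 and 6.25 in recovery. Bambi, a decoy receptor that dampens TGF-beta signals, measured 6.22 and 6.96 on cuprizone and 5.72 and 6.39 in recovery. These 3 genes, and no others, met that size rule (with a brighter group at least 1 above the table median) on the lower side, with mean changes of -0.61 ± 0.18, -0.89 ± 0.32 and -0.54 ± 0.15.

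On the higher side 10 genes met the size rule, among them Cst7, Lilrb4a and Il1b. Epb41l3, a cytoskeletal linker of the band 4.1 family, measured 5.86 and 5.77 on cuprizone and 6.52 and 6.61 in recovery. Its recovery libraries stood apart from the cuprizone libraries and from the control at 5.83, and the mean change was 0.75 ± 0.19. Pim1, a serine/threonine kinase, measured 6.55 and 8.10 on cuprizone and 7.20 and 8.74 in recovery, with equal steps of 0.64, a large difference by feeding time and a change of -0.063 under the time label. Abt1, a nuclear activator of basal transcription, measured 5.94 and 6.06 on cuprizone and 6.69 and 6.58 in recovery. The small nucleolar RNA gene Snord57 (0.75 ± 0.21) and the predicted genes Gm10847 (0.68 ± 0.16) and Gm10825 (0.63 ± 0.22) were also among the 10.

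The remaining gene of the 10 is Mir142, whose products are abundant in blood cells and microglia. Its probe measured 7.09 and 5.97 on cuprizone and 7.94 and 6.54 in recovery, against 7.98 in the control, with a mean change of 0.71 ± 0.17. Each recovery library was above its own pair's cuprizone library, although the groups overlapped. The array reads RNA of the gene, not the mature microRNAs, which are shown because their seeds (bases 2 to 8, in capitals) define what each product can target. The RefSeq sequences are as follows.
mmu-miR-142a-5p: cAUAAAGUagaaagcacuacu
mmu-miR-142a-3p: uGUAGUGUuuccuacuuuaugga
The seeds of the products differ, so they fall into separate seed families.

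Markers of other cells were checked, because sorted microglia can carry other leukocytes. Neutrophil markers summed to 6003 and 1082 (linear intensity) on cuprizone and 5887 and 918 in recovery, and to 8112 in the untreated Trem2-/- control. Most of their spread lay between the 4-week and the 12-week libraries, which also stand apart in the order of the sample numbers. S100a8, an abundant neutrophil protein gene, measured 10.97 and 6.59 on cuprizone and 10.86 and 3.77 in recovery. Of 13 neutrophil genes tested 0 were higher in both pairs and 5 lower, while Ly6g was above the table median in no library. Monocyte markers summed to 2336 and 2285 on cuprizone and 2119 and 1860 in recovery, with 1 of 11 genes higher in both pairs and 4 lower. Plac8, a gene of monocytes and granulocytes, had the smallest unadjusted limma p of the comparison, 0.000274 (adjusted p = 1). It measured 6.93 and 5.23 on cuprizone and 5.78 and 4.10 in recovery, and the mean change was -1.14 ± 0.20. In WT, Plac8 was lower in both pairs too, and its change was -1.54 with an adjusted limma p of 0.0434. With Trem2-Cu12 counted as 4 weeks, the change in Trem2-/- microglia was -0.19 and the adjusted p in WT was 0.757.

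T and NK cell markers summed to 1153 and 1121 on cuprizone and to 776 and 1405 in recovery. Of 7 tested 0 were higher in both pairs and 3 were lower, namely Klrd1, Nkg7 (5.75 and 4.91 on cuprizone, 4.42 and 4.56 in recovery) and Cd5. Dendritic cell markers summed to 5330 and 3607 on cuprizone and 4880 and 3616 in recovery, with 0 of 10 higher and 5 lower. Among them Cd24a, a surface glycoprotein, measured 6.14 and 4.75 on cuprizone and 5.32 and 3.84 in recovery. Under the time label of Trem2-Cu12 the changes of S100a8 and Cd24a were positive, at 2.23 and 0.080. Border macrophage markers summed to 5170 and 2694 on cuprizone and 5206 and 2653 in recovery, nearly equal within each pair, with 5 of 16 genes higher in both pairs and 4 lower. Of the T cell markers, Cd3d, Cd3g, Cd4 and Cd8a were above the table median in no library, while Cd3e lay near it, with 5.64 and 4.71 on cuprizone and 5.25 and 5.54 in recovery. Astrocyte markers summed to 7424 and 5985 on cuprizone and 9156 and 8514 in recovery, a list that includes Apoe. Of 9 astrocyte genes tested 4 were higher in both pairs and 2 lower. Gja1, a gap junction protein, measured 4.87 and 5.26 on cuprizone, both below the table median of 5.27, and 5.58 and 5.87 in recovery. Aldoc, which was lower in both pairs, measured 6.67 and 5.71 on cuprizone and 6.51 and 5.35 in recovery. Gfap and Aqp4 were above the table median in no library. Of 7 oligodendrocyte markers tested, 2 were higher in both pairs and 1 lower, with a median change of -0.06. Mbp, myelin basic protein, measured 6.21 and 5.89 on cuprizone and 6.25 and 6.55 in recovery. Mal, the 1 that was lower, measured 5.29 and 5.56 on cuprizone and 4.60 and 5.38 in recovery. Mog and Mobp were above the table median in no library. Neuron (5 tested, 3 higher and 1 lower), endothelial and mural (5 tested, 1 and 1), B cell (3 tested, 0 and 2), oligodendrocyte precursor and erythroid lists (1 tested each) held few genes above that median. In bulk RNA, fewer cells of a type and less RNA per cell cannot be told apart, and the part of these cells in the changes above was not tested.

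The change of Trem2-/- microglia was then set against that of WT microglia, with the difference itself tested in the same model. In WT, 7 genes fell with recovery (0.0649%) and 0 rose (0%) at an adjusted limma p under 0.05, with 909 genes at an unadjusted p under 0.05 (8.42%). The count of 7 was 0 without the feeding time block, and 0 when any of the 4 Trem2-/- libraries or the 4-week WT cuprizone library was left out of the model. The 7 genes were Apoc1, Cst7, Gpnmb, Itgax, Mamdc2, Olr1 and Plac8, and in Trem2-/- microglia their changes were 0.35, 1.14, 0.52, -0.13, 0.25, -0.12 and -1.14. Mamdc2 entered the test only through the WT cuprizone libraries (5.69 and 6.08), where it is high, and is not among the genes tested under the stricter filter. In every Trem2-/- library Gpnmb, Itgax, Mamdc2 and Olr1 lay below the table median of 5.27, so all of them entered the test through WT libraries alone. Their changes in Trem2-/- microglia are between values near background. Apoc1, an apolipoprotein, measured 10.83 and 9.79 on cuprizone in WT and 5.80 and 5.31 in Trem2-/- microglia. In recovery it measured 7.43 and 7.94 in WT and 5.55 and 6.25 in Trem2-/- microglia, still lower than in WT.

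For the difference between the genotypes 0 genes passed (0%), with 555 at an unadjusted p under 0.05 (5.14%), and the smallest adjusted p was 0.056. That value belonged to Cst7, with a difference of 3.07 ± 0.35 (change in Trem2-/- minus change in WT), and to Gpnmb, with 2.09 ± 0.25. Gpnmb was above the table median in the WT cuprizone and recovery libraries alone. Cst7 and Gpnmb passed with no filter on dim genes, with a stricter filter and with the mean over a gene's probes. The adjusted p of Cst7 was 0.0319, 0.0307 and 0.0493 in these settings. Over all alternatives the adjusted p of Cst7 ranged from 0.00199 with an intensity trend to 1 without the feeding time block, and it was 0.507 without Trem2-Cu12. Next in order on this side were Mamdc2 (1.80 ± 0.24, adjusted p = 0.0979), which was above the table median in the WT cuprizone libraries alone, and Tfb2m, a mitochondrial transcription factor (1.45 ± 0.23, adjusted p = 0.208). On the other side the smallest p-values were those of Sparcl1 (-1.16 ± 0.25), Zbtb10 (-1.12 ± 0.26), Cd24a (-1.30 ± 0.31) and Tmem54 (-1.13 ± 0.27), none of which passed.

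By list, the difference was largest for the disease-associated microglia genes. In WT 30 of the 33 were lower in both pairs, with a median change of -0.70, and the median difference between the genotypes was 0.95. Of these genes 16 were higher in both Trem2-/- pairs and lower in both WT pairs, beside 684 (6.34%) of all genes. The 16 include Gpnmb, which was below the table median in every Trem2-/- library and entered the test through WT libraries alone. The same opposed pattern held for 10 of 26 interferon genes and 6 of 18 cytokine genes, with WT medians of -0.48 and -0.19. Among homeostatic genes 5 of 25 were lower in both Trem2-/- pairs and higher in both WT pairs, beside 583 (5.4%) of all genes. For Itgax, Lpl and Cd52, by contrast, the WT changes were -1.95, -1.54 and -0.84, and those in Trem2-/- microglia were -0.13, 0.21 and -0.10. Of these 3, Itgax alone passed the test in WT.

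**Figure D4:**
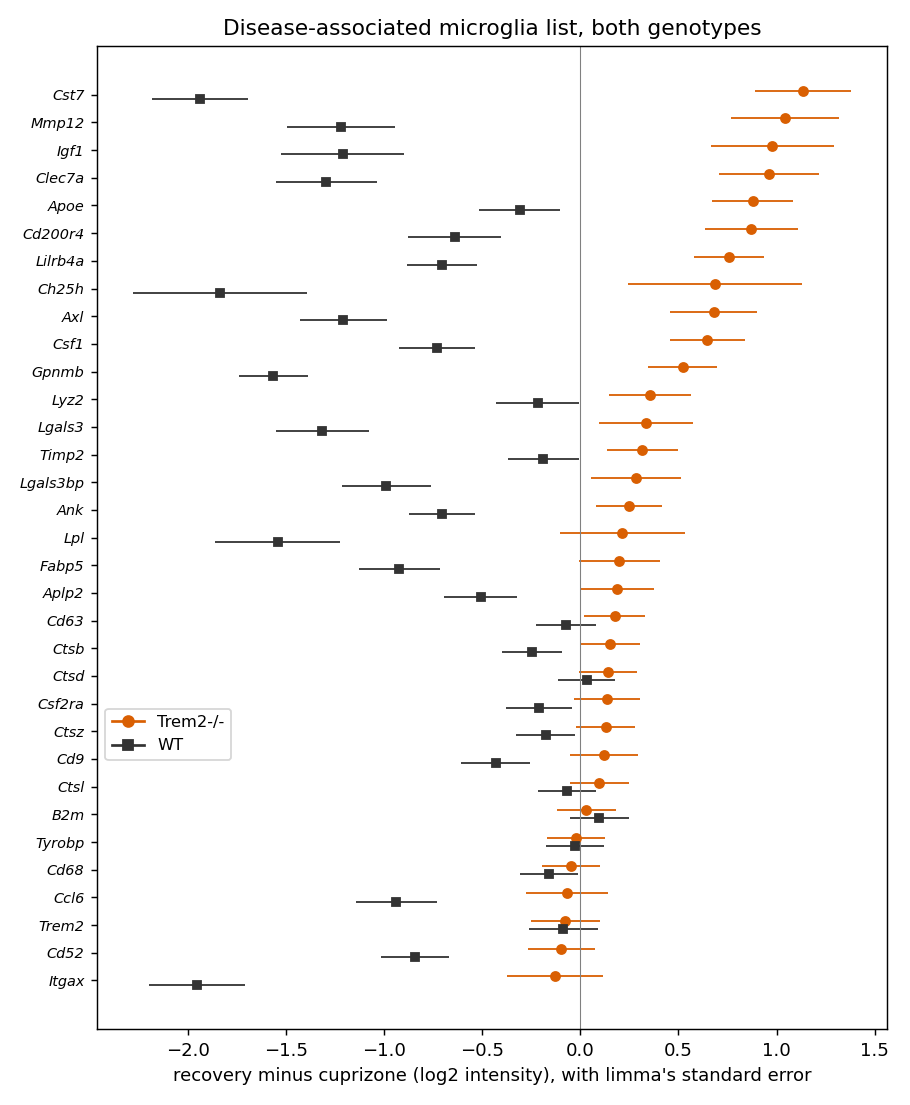
Mean recovery minus cuprizone in log2 intensity for the 33 tested genes of the disease-associated microglia list, with limma's standard error as bars, orange circles for Trem2-/- and black squares for WT (2 against 2 libraries each). Cst7 stands at the top with 1.14 in Trem2-/- and -1.94 in WT, and at the bottom Itgax has -0.13 and -1.95.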

How the data were processed

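Array values of 10 libraries were used as deposited by the authors: linear intensity, 1 value per probe and array. The sources used here do not give the background correction or normalization behind these deposited intensity values. Log2 was taken without further scaling. Of 24567 probes, 21259 named 1 gene in the platform's annotation, 1274 several and 2034 were unlisted. The brightest probe stood for a gene. Genes above the table median (5.27, log2) on at least 2 arrays were tested (10792).

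limma 3.58.1 in R 4.3.3 fitted 4 group means (cuprizone and recovery, both genotypes; 8 libraries) with the titled feeding time as a block, leaving 3 residual degrees of freedom. Adjusted p-values are Benjamini-Hochberg over all genes tested, threshold 0.05. Pairing comes from the titled feeding time: deviations of paired libraries from their group means correlated at 0.56 (Trem2-/-) and 0.58 (WT). The model was checked on simulated data in which 200 genes were changed by 3 on the log2 scale. It recovered 199 of them, with 10 false calls. That check does not show whether smaller changes, such as most of those given here, would be found.

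Named genes are fixed anchor genes, the 12 largest mean changes per direction among genes with at least 0.5 in both pairs and a brighter group at least 1 above the table median (fewer met this), the 3 largest per list moving alike in both pairs, and 4 per direction by smallest p for the genotype difference. Ctsd, Ifi207, Tnf, Irf7, Cd52, Apoc1, Olr1 and Cd3e are named beside these, chosen after their values were seen where the rule does not name them. Members and lists were chosen with earlier results of these data known. Alternatives covered the block, the time label, scaling, filters, probe choice, variance trend and leaving out each library. The number of arrays limits the precision.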

Additional observations from a re-analysis of the deposited data

Results flagged for a closer look

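For these genes both Trem2-/- pairs moved one way and both WT pairs the other. Some steps were very small: 0.0092 for Ifit1 (Trem2-/-, 4 weeks), 0.0037 for Abca1 (Trem2-/-, 12 weeks) and 0.0099 for P2ry12 (WT, 4 weeks). With Trem2-Cu12 counted as 4 weeks, the Trem2-/- changes of Ifit1, Cxcl10, P2ry12, Cx3cr1, Cd24a and Sparcl1 took the other sign. The values below are the change in Trem2-/- microglia minus the change in WT microglia, on the log2 scale. None of these differences had an adjusted limma p under 0.05. Among disease-associated genes the differences were 3.07 for Cst7, 2.26 for Clec7a, 2.19 for Igf1, 2.09 for Gpnmb, 1.89 for Axl, 1.46 for Lilrb4a and 1.19 for Apoe. Inflammatory and antigen presentation genes followed with 1.96 for Ifit1, 0.98 for Cxcl10, 0.90 for Il1b and 1.08 for Cd74. Lipid genes had smaller values, with 0.40 for Hmgcs1 and 0.49 for Abca1. The homeostatic receptors had the opposite sign, with -0.17 for P2ry12 and -0.19 for Cx3cr1. The remaining genes were Mamdc2 (1.80), Tfb2m (1.45), Sparcl1 (-1.16), Zbtb10 (-1.12), Cd24a (-1.30) and Tmem54 (-1.13).

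For 7 lists the median change was positive in both Trem2-/- pairs and negative in both WT pairs, and no list was tested as a set. The lists are not separate results, because the disease-associated list shares genes with others. Examples are Gpnmb and Ctsd (lysosomal), Apoe (efflux), Clec7a (phagocytic) and Csf1 (cytokines). The values are medians over a list's genes of each gene's change in Trem2-/- minus its change in WT. They were 0.95 for disease-associated microglia, 0.68 for interferon response, 0.55 for inflammatory cytokines and 0.25 for glycolysis and hypoxia. Lower values were 0.17 for lysosomal hydrolases and membrane proteins, 0.15 for cholesterol efflux and LXR and 0.11 for phagocytic receptors. The Trem2-/- medians themselves were small in these lists. At 4 and 12 weeks they were 0.06 and 0.08 (lysosomal), 0.02 and 0.05 (efflux) and 0.02 and 0.04 (phagocytic).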

How the results depend on the processing

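The Trem2-/- comparison called 0 genes under every alternative run, with 64 to 676 genes at an unadjusted p under 0.05 (64 without the feeding time block, 676 with no filter on dim genes). The lowest adjusted p was 0.0694, without Trem2-Cu4+2. The 2 libraries per group limit the precision of every change given here.

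WT genes called lower (7) numbered 0 without the block, 2 with the block by genotype, 20 with the block within the genotype (1 called higher), 0 with the time label, 3 after quantile normalization and 16 with an intensity trend. Leaving out each library in turn gave 0 to 10 called lower and 0 to 2 called higher. The genotype difference called 1 gene with array medians subtracted, 2 each with no filter, a stricter filter or the mean over probes, and 5 with the intensity trend. The homeostatic median was 0.11 with the time label and -0.045 to 0.019 when libraries were left out.

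Taking the feeding time of Trem2-Cu12 from its time label turned the sign of 30 named genes' changes. By construction, it sets that library beside the 4-week ones. Over all probes Trem2-Cu12 correlated at 0.988 with Trem2-Cu12+2 and at 0.981 with Trem2-Cu4. Which label gives its true feeding time was not tested. The changes became 0.040 for Trem2, 0.045 for Tyrobp, 0.026 for P2ry12, 0.038 for Cx3cr1, 0.24 for Sall1, 0.18 for Slco2b1, 0.19 for Mef2c, 0.17 for Selplg, 0.053 for Atp6v0d1, 0.15 for C1qc, 0.046 for H2-DMa, 0.28 for Psmb10, 0.30 for Aldoc, 2.23 for S100a8, 2.54 for S100a9, 1.59 for Ngp, 0.32 for S100a4, 0.080 for Cd24a, 0.091 for Cd209a and 0.083 for Sparcl1. Those that became negative were -0.76 for Cxcl10, -0.19 for Ifit1, -0.063 for Pim1, -0.18 for Tnfsf9, -0.039 for Tgfb1, -0.031 for Vegfa, -0.14 for Id2, -0.042 for Hspa4, -0.13 for Slc7a11 and -0.14 for Slc2a1.

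Leaving out each library in turn gave a change of either sign for these genes, as lowest to highest value: Acaca -0.021 to 0.76, C1qc -0.13 to 0.0003, Ccl22 -0.63 to 0.061, Chil3 -0.29 to 1.25, Cnp -0.15 to 0.40, Csf1r -0.062 to 0.096, Egln3 -0.014 to 0.69, H2-Aa -0.39 to 0.42, Hsd17b7 -0.53 to 0.017, Itgax -0.33 to 0.076, Lpl -0.36 to 0.79, Mef2c -0.18 to 0.0054, Ngp -1.46 to 0.18, S100a8 -2.96 to 0.034, S100a9 -2.18 to 0.22, Sall1 -0.28 to 0.031, Scd1 -0.76 to 0.12, Slc7a11 -0.040 to 0.90, Snap25 -0.10 to 0.49, Tmem119 -0.065 to 0.18, Trem2 -0.30 to 0.15, Tyrobp -0.077 to 0.036 and Vegfa -0.058 to 0.33. The cause was not tested. None of these genes was called in Trem2-/- microglia.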
